A study of Homo sapiens with 4 samples.

Results

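The BCL2 family decides whether the outer membrane of mitochondria is opened during apoptosis, and 10 of its genes were examined here: the pro-survival members MCL1, BCL2L1 and BCL2L2, the pore-forming effector BAK1, and the BH3-only members BID, BAD, BCL2L11, BIK, BMF and PMAIP1. They were chosen by gene symbol, with GENCODE release 44 as the source of symbols, and made up 10 of the 61906 genes of the expression table. BAX and BBC3, a further effector and a further BH3-only gene, were not counted among the 10 and are described with the other apoptosis genes. The samples were 4 libraries of poly(A) RNA from HepG2, an established human hepatocellular carcinoma line of wild-type genotype. The 2 Mock libraries came from mock-treated cells, entered in the labels as untreated, and the 2 PDS libraries from cells exposed to 20 µM pyridostatin (PDS) for 24 h. PDS is a ligand of guanine quadruplexes (G4), folded structures of guanine-rich DNA or RNA, and the study asked how G4 structures bear on gene expression. Nothing in the sample labels ties the libraries to different cultures, and a p-value here therefore reflects only how far these libraries vary, possibly for technical reasons. A single cell line stands behind all 4.

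Pro-survival proteins hold the effectors BAK1 and BAX in check at the outer mitochondrial membrane. BH3-only proteins respond to different kinds of damage or signal and act by occupying the groove of the pro-survival proteins or by engaging the effectors directly. Once freed, the effectors assemble into pores, cytochrome c leaves the mitochondrion, and the caspase cascade begins. In mice, hepatocytes depend on MCL1 and on BCL-XL, the protein of BCL2L1, for survival. The proteins of the family are also regulated by splicing, phosphorylation, cleavage and degradation, none of which is read by gene-level RNA values. Both MCL1 and BCL2L1 are spliced into long pro-survival and short pro-apoptotic forms, and these forms were summed in the values given here.

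Levels were given as TPM, transcripts per 1000000, a unit corrected for gene length and set to the same total in every library. Depth, as read numbers recovered from the TPM, was 39217670 and 30408397 in Mock and lower in PDS, at 15573166 and 19647907. RNA of the mitochondrial genome took 14.5% to 15.3% of TPM in Mock and 36.4% to 36.5% in PDS, and in a share of a set total this leaves less for all other genes. As deposited, the median of all tested genes was 0.55 lower in PDS on the log2 scale. Fold changes are therefore given on log2(scaled TPM + 1), after division of each library by a median-of-ratios factor, and are relative to the median gene. A change in TPM as deposited is named beside each of them where its direction differs. RNA per cell was not tested, so a gene that rose against the median gene may be unchanged or lower in RNA per cell. All 10 hepatocyte markers examined reached 1 TPM, with summed levels of 40445 to 49538 TPM, while 0 of 6 erythroid markers, typical of the K562 line also used by the study, did so, with sums of 0.31 to 1.08 TPM. The leukocyte marker PTPRC stayed at or below 0.073 TPM, although LYZ, which encodes lysozyme, stood at 5876 to 7206 TPM.

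Because PDS binds G4 structures, the promoters of the family were searched for a G4 sequence motif, defined as 4 runs of at least 3 G with 1 to 7 bases between runs, on either strand. RefSeq promoter sequences on GRCh38.p14, from 250 bases before to 50 bases after an annotated start, were at hand for 7 of the 10 genes. The motif occurred in at least 1 start of 5 of them, namely PMAIP1, BCL2L11, BAD, BAK1 and BID, and in no listed start of BCL2L1 or BMF. It was found in 25% of all 35116 promoter entries and in 41% of the 9686 tested genes with an entry. Promoters of 5 members are shown, each read 5′ to 3′ on the strand of its gene with the motif in capitals, because they set members with opposite changes in RNA side by side: a gene that fell (PMAIP1), one lower without passing the test (BCL2L11), members that rose and hold the motif (BAD and BAK1), and one that rose and lacks it (BCL2L1).
PMAIP1, chr18:59899746-59900045, plus strand: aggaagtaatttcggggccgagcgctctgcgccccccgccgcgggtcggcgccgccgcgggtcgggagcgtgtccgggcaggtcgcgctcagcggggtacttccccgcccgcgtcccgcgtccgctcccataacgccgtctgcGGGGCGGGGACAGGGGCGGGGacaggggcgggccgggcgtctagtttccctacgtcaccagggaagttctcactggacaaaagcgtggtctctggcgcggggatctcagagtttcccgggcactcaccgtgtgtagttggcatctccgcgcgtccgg
BCL2L11, chr2:111120664-111120963, plus strand: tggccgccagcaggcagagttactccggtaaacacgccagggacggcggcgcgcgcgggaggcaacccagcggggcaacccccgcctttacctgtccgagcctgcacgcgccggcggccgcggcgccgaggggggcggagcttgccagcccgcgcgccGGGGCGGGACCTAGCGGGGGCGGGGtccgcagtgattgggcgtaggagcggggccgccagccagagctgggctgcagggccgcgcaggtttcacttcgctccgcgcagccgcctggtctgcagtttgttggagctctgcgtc
BAD, chr11:64284655-64284954, minus strand: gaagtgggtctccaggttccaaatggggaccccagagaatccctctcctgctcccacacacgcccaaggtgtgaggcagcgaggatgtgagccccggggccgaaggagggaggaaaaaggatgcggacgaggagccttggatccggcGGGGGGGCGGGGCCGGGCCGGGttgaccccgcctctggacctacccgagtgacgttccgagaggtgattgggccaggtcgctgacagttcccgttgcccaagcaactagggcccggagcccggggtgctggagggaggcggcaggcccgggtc
BAK1, chr6:33580227-33580526, minus strand: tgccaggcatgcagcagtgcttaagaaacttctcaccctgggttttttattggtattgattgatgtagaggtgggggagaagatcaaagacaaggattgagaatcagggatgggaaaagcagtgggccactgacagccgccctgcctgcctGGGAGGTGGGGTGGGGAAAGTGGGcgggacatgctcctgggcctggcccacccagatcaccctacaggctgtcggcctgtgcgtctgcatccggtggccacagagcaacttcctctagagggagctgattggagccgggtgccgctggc
BCL2L1, chr20:31723914-31724213, minus strand: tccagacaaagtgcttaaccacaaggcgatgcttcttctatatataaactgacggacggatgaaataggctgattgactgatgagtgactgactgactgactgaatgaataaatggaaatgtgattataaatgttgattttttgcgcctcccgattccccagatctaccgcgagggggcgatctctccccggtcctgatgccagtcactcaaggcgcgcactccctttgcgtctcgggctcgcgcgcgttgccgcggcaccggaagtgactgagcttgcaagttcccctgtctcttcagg
Counted from the start site, the motif ran from -107 to -87 in PMAIP1, from -92 to -68 in BCL2L11, from -103 to -82 in BAD and from -99 to -76 in BAK1. GGGCGG, the core of the binding site of SP1, a transcription factor of GC-rich promoters, overlaps the motif in members that rose as well as in those that were lower. It lay wholly within the motif in 2 copies in PMAIP1 and in BCL2L11 and in 1 copy in BAD. The starts of BID held several motifs, with 0 to 2 copies wholly within each. In BAK1, 0 copies lay wholly within the motif, but its last run of G begins a GGGCGG that extends past it. GGGCGG on either strand occurred in 45% of all entries and in 76.8% of the tested genes with an entry. A match describes the letters of the promoter and is not evidence that a G4 formed there. Starts of MCL1, BCL2L2 and BIK were not analysed here.

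All 10 family genes passed the filter of 1 TPM on average over the libraries. In the limma fit over 14686 genes, 7 of the 10 changed at an adjusted p below 0.05, beside 29.2% of all tested genes. MCL1, BCL2L1, BAK1, BID, BAD and BIK rose relative to the median gene (6 of 10, beside 16.2% of tested genes that rose), although in TPM as deposited MCL1 stood only 0.08 higher on the log2 scale and BCL2L1, BAK1, BID and BAD stood lower. PMAIP1 fell under every scaling run (1 of 10, beside 13% of tested genes that fell). BCL2L2, BCL2L11 and BMF did not pass the test. The median of the 10 log2 fold changes was 0.30, while the scaling sets the median of all tested genes close to 0. The Mock and PDS libraries did not overlap in scaled TPM for any of the 10 genes, 7 being higher and 3 lower in PDS, beside 70.8% of tested genes without overlap, 35.2% higher and 35.6% lower. In RNA of a whole culture, fewer cells that express a gene and less RNA per cell cannot be told apart. When either Mock library was left out, limma called 0 of the 10 members and 0 genes in all, although 4621 genes with 6 members among them had an unadjusted p below 0.05 without Mock replicate 1, and 4094 genes with 7 members without Mock replicate 2. When either PDS library was left out, the calls of MCL1, BAD and BIK held and the other 4 were lost.

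**Figure D1:**
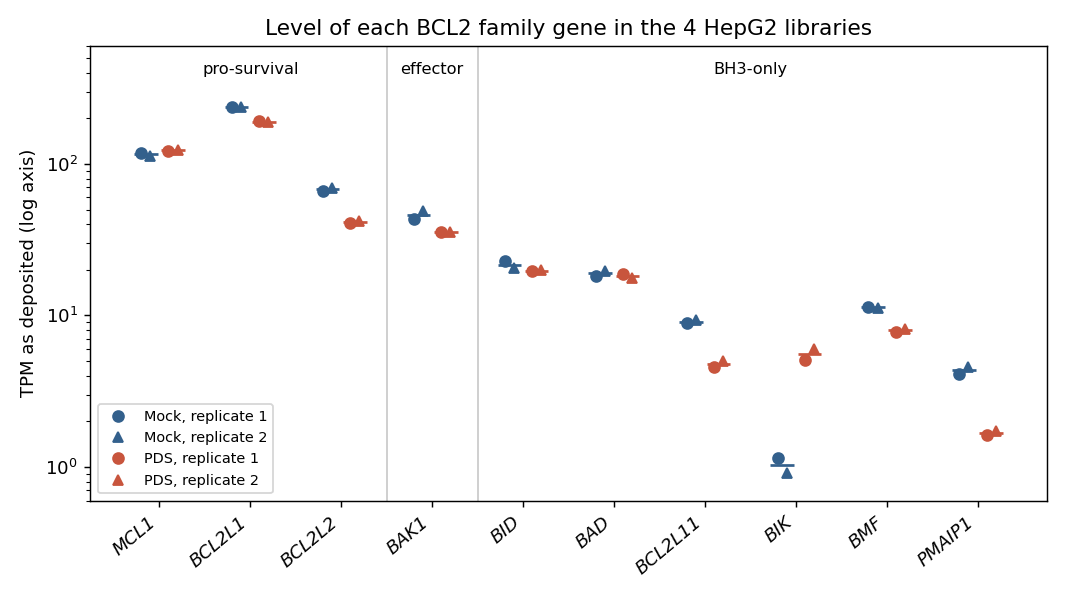
TPM as deposited of the 10 BCL2 family genes on a log axis, in 2 Mock libraries (blue) and 2 PDS libraries (red), with a bar at each group mean and the genes ordered by role. BCL2L1 and MCL1 were highest in all 4 libraries, and BIK, near 1 TPM in Mock, was the gene whose TPM differed by the largest factor.

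MCL1, a pro-survival protein with a short half-life that binds BAK1, BCL2L11 and PMAIP1 proteins, lies at chr1:150560895-150579738 on the minus strand of GRCh38 (ENSG00000143384.14). Its level was 118 and 113 TPM in the Mock libraries and 122 and 124 TPM in the PDS libraries, on 8810, 6457, 4695 and 5944 recovered reads. In scaled TPM these were 95.9 and 89.0 against 151 and 156. Both PDS libraries were thus above both Mock libraries on either scale, by little in TPM and clearly after scaling. MCL1 rose by 0.73 on the log2 scale (SE 0.0605, 95% interval 0.57 to 0.88, limma adjusted p = 0.00575). With the sign counted, its log2 fold change was above that of 94.4% of tested genes. In TPM as deposited, the difference was 0.0837 and did not pass the test (limma adjusted p = 0.225).

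BCL2L1, which encodes BCL-XL, lies at chr20:31664452-31723989 on the minus strand (ENSG00000171552.14) and had the highest TPM of the family. It stood at 238 and 237 TPM in Mock and at 191 and 188 TPM in PDS, so the PDS libraries were lower in TPM. Scaled TPM was 193 and 186 in Mock and 237 in both PDS libraries, and the order of the groups was turned round. BCL2L1 rose by 0.32 relative to the median gene (SE 0.0509, limma adjusted p = 0.0147), while its log2 difference in TPM as deposited was -0.32. With quantile normalization the value was 0.16 (limma adjusted p = 0.0535), and with scaling to the total outside the mitochondrial genome it was 0.10 (limma adjusted p = 0.179). The antisense RNA ABALON shares 41.3% of the exon bases of BCL2L1, and since the strand setting of the read counting was not given in the sources used here, reads of the pair cannot be told apart.

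BCL2L2, which encodes the pro-survival protein BCL-W, lies at chr14:23298790-23311751 on the plus strand (ENSG00000129473.11). Its TPM was 66.5 and 69.7 in Mock and 41.0 and 42.0 in PDS, a clear drop in TPM without overlap. After scaling the libraries came close, at 53.9 and 54.7 in Mock and 50.8 and 52.9 in PDS. The log2 fold change was -0.07 (SE 0.0538, 95% interval -0.20 to 0.07, limma adjusted p = 0.392), so BCL2L2 was not distinguishable from the median gene, whereas MCL1 and BCL2L1 rose against it. Scaled to the total outside the mitochondrial genome, BCL2L2 was lower by the test, at -0.29 (limma adjusted p = 0.0144). A readthrough gene, BCL2L2-PABPN1, shares 16.8% of its exon bases, and 24.8% are shared with any other gene. Reads there cannot be assigned with certainty.

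BAK1, the effector that sits in the outer mitochondrial membrane, lies at chr6:33572547-33580293 on the minus strand (ENSG00000030110.14). Its TPM was 43.2 and 49.2 in Mock and 35.7 and 35.5 in PDS, and its scaled TPM 35.0 and 38.6 against 44.3 and 44.7. The Mock libraries differed from each other far more than the PDS libraries did. BAK1 rose by 0.27 relative to the median gene (SE 0.0676, 95% interval 0.09 to 0.44, limma adjusted p = 0.0408), and its log2 difference in TPM as deposited was -0.36. Of the called members it was closest to the threshold, and it kept its call as higher in 4 of 15 alternative settings. When a trend of fold change on exon length was removed, the value was 0.15 (limma adjusted p = 0.192).

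BID, which caspase-8 cleaves into its active form and which thereby links death receptors to mitochondria, lies at chr22:17734138-17774770 on the minus strand (ENSG00000015475.19). Its TPM was 22.7 and 20.5 in Mock and 19.6 and 20.0 in PDS, and its scaled TPM 18.4 and 16.1 against 24.3 and 25.2. BID rose by 0.50 relative to the median gene (SE 0.082, limma adjusted p = 0.0159), with a log2 difference of -0.12 in TPM as deposited. The difference in mean TPM was smaller than the gap between the Mock libraries, and only the scaled values stood clearly apart.

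BAD, which binds BCL-XL and BCL-W and is held inactive by phosphorylation, lies at chr11:64269830-64284704 on the minus strand (ENSG00000002330.14). Its TPM was 18.3 and 19.6 in Mock and 18.8 and 17.7 in PDS, and the groups overlapped. Scaled TPM was 14.9 and 15.4 in Mock and 23.3 and 22.3 in PDS. BAD rose by 0.56 relative to the median gene (SE 0.0617, limma adjusted p = 0.00748), with a log2 difference of -0.05 in TPM as deposited. GPR137, on the opposite strand, shares 23.7% of the exon bases of BAD, and reads there are likewise uncertain.

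BIK, a BH3-only protein found mainly at the endoplasmic reticulum, lies at chr22:43110750-43129712 on the plus strand (ENSG00000100290.3) and showed the largest change of the family. Its TPM was 1.14 and 0.919 in Mock and 5.09 and 5.99 in PDS. These values rested on only 13 and 8 reads in Mock and 30 and 44 reads in PDS. The exact 95% Poisson intervals of the TPM, which cover counting error only, reached at most 1.95 in Mock and went no lower than 3.44 in PDS, so the groups were separate beyond counting error. BIK rose by 2.12 on the log2 scale (SE 0.138, 95% interval 1.77 to 2.47, limma adjusted p = 0.00496), a 4.34-fold change. With the sign counted, the log2 fold change of BIK was above that of 99.8% of tested genes. BIK was higher in PDS under every scaling run, with log2 values from 1.03 at a pseudocount of 5 to 3.02 in limma-voom on the recovered reads (adjusted p = 1.38e-05), since the pseudocount weighs heavily at this level. No annotated exon of another gene overlaps BIK.

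PMAIP1, which encodes NOXA, a p53-responsive BH3-only protein that binds MCL1 and promotes its degradation, lies at chr18:59899996-59904305 on the plus strand (ENSG00000141682.12) and was the member that fell. Its TPM was 4.13 and 4.55 in Mock and 1.62 and 1.72 in PDS, on 108, 91, 22 and 29 reads. Counting intervals of 3.39 to 4.98 and 3.66 to 5.58 TPM in Mock lay above those of 1.02 to 2.46 and 1.15 to 2.47 TPM in PDS. PMAIP1 fell by 0.53 on the log2 scale (SE 0.113, 95% interval -0.82 to -0.24, limma adjusted p = 0.0274) and lay among the lowest 5% of tested genes. It was lower under every scaling run, with values of -0.61 under quantile normalization, -0.69 outside the mitochondrial total and -0.998 in TPM as deposited, and limma-voom gave -0.70 (adjusted p = 0.036). With the replicate number as a block the adjusted p was 0.0598.

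BCL2L11, which encodes BIM, a BH3-only protein able to bind all pro-survival members, lies at chr2:111119378-111168444 on the plus strand (ENSG00000153094.24). Its TPM was 8.89 and 9.31 in Mock and 4.56 and 5.02 in PDS, a drop without overlap. Scaled TPM was 7.21 and 7.31 against 5.66 and 6.33, still lower in both PDS libraries. The log2 fold change of -0.24 did not pass the test (SE 0.0851, 95% interval -0.46 to -0.02, limma adjusted p = 0.0922), but it did with scaling to the total outside the mitochondrial genome, at -0.44 (limma adjusted p = 0.0147). Its gene version in the table differs from that in GENCODE 44, and its reads were not recovered. MIR4435-2HG, on the opposite strand, shares 10.8% of the exon bases of BCL2L11, and reads there are uncertain.

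BMF, a BH3-only protein tied to the actin cytoskeleton, lies at chr15:40087890-40108892 on the minus strand (ENSG00000104081.14). Its TPM was 11.4 and 11.3 in Mock and 7.83 and 8.11 in PDS, and its scaled TPM 9.28 and 8.85 against 9.70 and 10.2. The log2 fold change was 0.12 (SE 0.071, 95% interval -0.06 to 0.31, limma adjusted p = 0.245), with -0.08 outside the mitochondrial total and -0.46 in TPM as deposited. BMF thus had no direction that held across scalings. BMF-AS1, on the opposite strand, shares 8.5% of the exon bases of BMF.

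**Figure D2:**
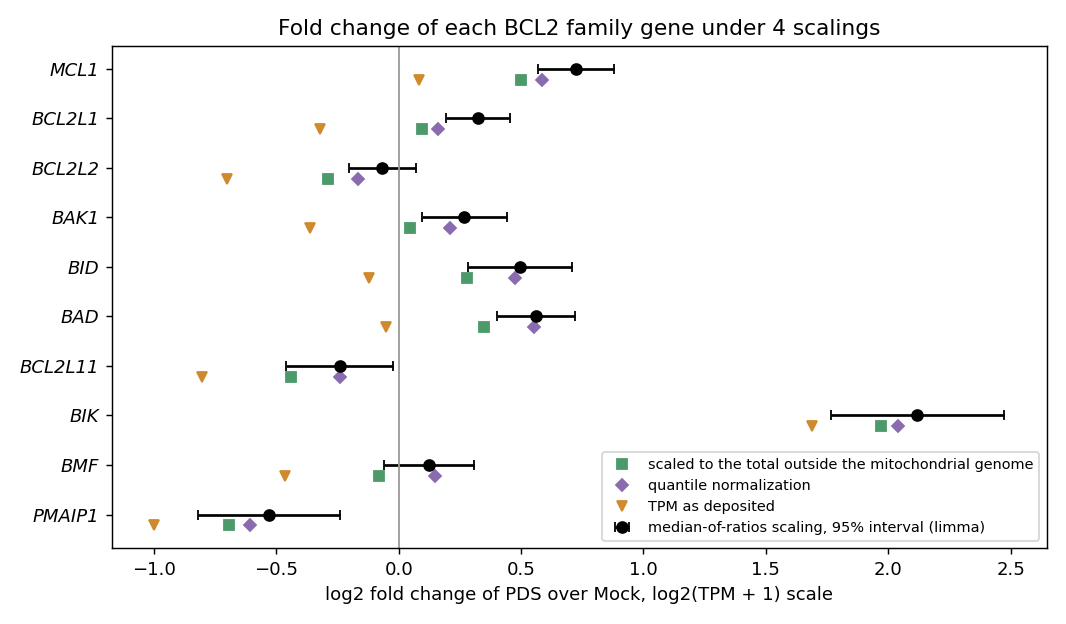
Log2 fold change of PDS over Mock for each family gene, on log2(TPM + 1). Black points with 95% limma intervals are the median-of-ratios scaling, and the coloured points are quantile normalization, scaling to the total outside the mitochondrial genome, and TPM as deposited. BIK (2.12) and MCL1 (0.73) lay right of 0 and PMAIP1 (-0.53) left of 0 under every scaling, whereas BCL2L1, BAK1, BID, BAD and BMF changed side.

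A ratio of 2 genes within a library does not depend on how libraries are scaled, so each member was also set against MCL1 in the same library. Of the 9 ratios, 8 were lower and 1, that of BIK, was higher in PDS, and the 2 groups of libraries overlapped in none. MCL1 itself rose more than most genes, and over the other 14685 tested genes 84.5% were lower and 3.81% higher against it without overlap, 88.3% in all, so the 8 lower ratios were near the share of genes at large. For every 100 units of MCL1 TPM, PMAIP1 stood at 3.74 in Mock and 1.36 in PDS, a log2 difference of -1.46. BCL2L11 stood at 7.85 and 3.9 (log2 difference -1.01), and BMF at 9.81 and 6.49 (-0.60). The effector BAK1 went from 39.8 to 29 per 100 MCL1 (-0.46). BID and BAD moved least against MCL1, with log2 differences of -0.21 and -0.14. The BAD log2 ratio was -2.689 in Mock replicate 1 and -2.695 in PDS replicate 1. That gap is within counting error, as BAD had intervals of 16.5 to 20.3 and 16.3 to 21.6 TPM in these libraries. BIK alone moved the other way, from 0.885 to 4.5 per 100 MCL1, a log2 difference of 2.35. The pro-survival partners were lower against MCL1 as well, BCL2L1 from 205 to 154 and BCL2L2 from 58.8 to 33.8 per 100. With 2 libraries against 2, the exact permutation test of each ratio gave a two-sided p of 0.333, the smallest this design allows, so no ratio could reach 0.05. All 9 ratios share MCL1 as the denominator and are not separate observations of it.

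**Figure D3:**
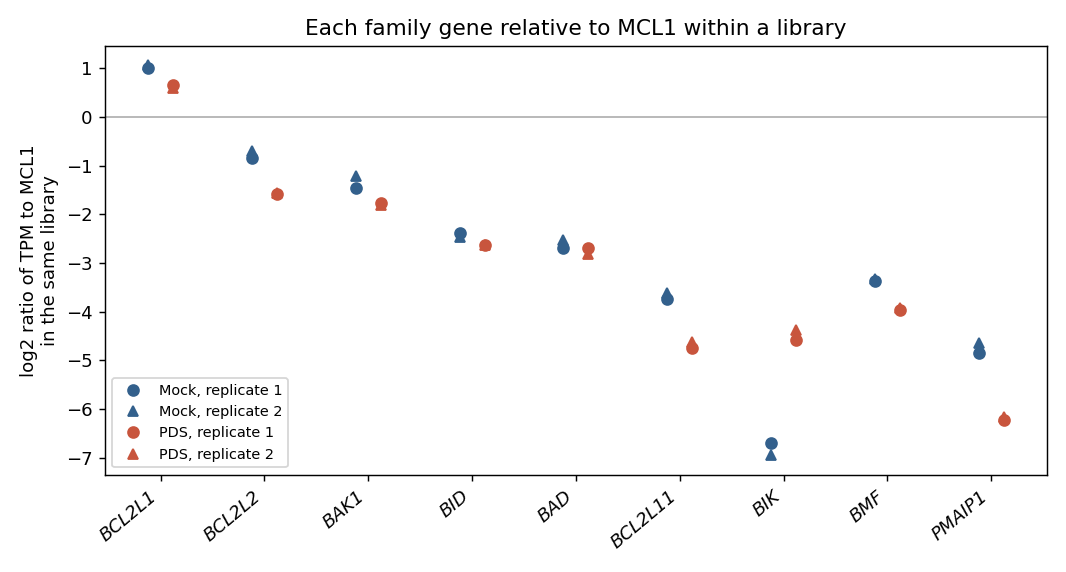
Log2 ratio of the TPM of each member to that of MCL1 in the same library, for 2 Mock (blue) and 2 PDS (red) libraries, with a line at 0 where a gene equals MCL1. The red points lie below the blue ones for every member except BIK, as they would for 84.5% of tested genes against MCL1, and the BIK log2 ratio was -6.70 and -6.95 in Mock and -4.58 and -4.37 in PDS. For BAD, the nearest points were -2.689 in Mock and -2.695 in PDS, a gap within counting error.

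The summed TPM of the 10 genes, which leaves out BAX and BBC3, was 532.5 and 535 in Mock and 447.2 and 447.6 in PDS. Mean TPM outside the sum was 239.8 in Mock and 185.6 in PDS for the effector BAX, and 34.1 and 30.97 for the BH3-only BBC3. The shares below are therefore not those of all effectors or all BH3-only genes. Within the sum of the 10, the share of MCL1 was 21.7% ± 0.72 in Mock and 27.4% ± 0.28 in PDS (SD, n = 2), and that of BCL2L1 44.5% ± 0.32 and 42.4% ± 0.54. BCL2L2 took 12.8% ± 0.38 in Mock and 9.27% ± 0.15 in PDS. The pro-survival genes among the 10 nevertheless kept nearly the same share of this sum, 78.9% ± 0.66 in Mock and 79.1% ± 0.11 in PDS, with overlapping libraries. The 6 BH3-only genes together held 12.4% ± 0.11 in Mock and 13% ± 0.14 in PDS, and the effector BAK1 8.65% ± 0.77 and 7.95% ± 0.039, both without overlap. Within the BH3-only class, BIK was at 0.193% and 1.24% and PMAIP1 at 0.813% and 0.374%. Class sums within the 10 genes were thus close between the groups, although only the pro-survival sum had overlapping libraries. Single genes within a class differed as well, and these shares of RNA carry no measure of protein.

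In Mock, the order of mean TPM was BCL2L1, MCL1, BCL2L2, BAK1, BID, BAD, BMF, BCL2L11, PMAIP1 and BIK, and no neighbours in this order had overlapping library values. In PDS, the first 7 were in the same order, followed by BIK, BCL2L11 and PMAIP1. BIK thus went from rank 10 to rank 8. Its place above BCL2L11 in PDS was within counting error, since the intervals of BIK, 3.44 to 7.27 and 4.35 to 8.04 TPM, contain the BCL2L11 values of 4.56 and 5.02 TPM. BID and BAD in PDS were also within the counting error of each other, BID at 18.0 to 21.3 and 18.5 to 21.5 TPM and BAD at 16.3 to 21.6 and 15.5 to 20.1 TPM. In Mock replicate 2 their intervals overlapped too, at 19.1 to 22.0 TPM for BID and 17.4 to 21.9 TPM for BAD. In Mock replicate 1 they did not, at 21.5 to 24.1 and 16.5 to 20.3 TPM.

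Of 11 other BCL2 homologs and BH3-only genes, 5 reached 1 TPM on average and were tested, 2 rose and 0 fell. Over this list and those below, 14 of 43 tested genes were called, 9 higher and 5 lower. Beside them, 29.2% of all tested genes were called, 16.2% higher and 13% lower, so the lists together were near the share of genes at large. BAX, the effector that moves from cytosol to mitochondria, was at 241 and 239 TPM in Mock and 194 and 177 TPM in PDS, with a log2 fold change of 0.28 relative to the median gene (limma adjusted p = 0.0318) and of -0.37 in TPM as deposited. The BAX call was lost under quantile normalization (0.11, limma adjusted p = 0.219), outside the mitochondrial total (0.05, limma adjusted p = 0.573) and with the length trend removed (0.18, limma adjusted p = 0.0897). BBC3, which encodes PUMA, a BH3-only target of p53, was at 37.5 and 30.7 TPM in Mock and 32.5 and 29.4 TPM in PDS, with 0.50 after scaling (limma adjusted p = 0.037), 0.28 outside the mitochondrial total (limma adjusted p = 0.106) and -0.13 in TPM as deposited. BAX was on the level of BCL2L1, above BAK1 in every library. BCL2, the founding member of the family, was at 0.134 to 0.295 TPM in the 4 libraries and was not tested, and BCL2A1, BCL2L10, BCL2L14, BCL2L15 and HRK were below the filter too. BCL2, BCL2A1 and BCL2L10 were each at or below 0.295 TPM in every library. BCL2L12, a more distant homolog, stood at 63.7 ± 0.488 TPM in Mock and 42.5 ± 2.9 TPM in PDS (SD, n = 2), about the level of BCL2L2, with a log2 fold change of 0.06 (limma adjusted p = 0.506).

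Of 13 apoptosome and caspase genes, all were tested, 2 rose, 1 fell and 10 did not pass, beside 16.2% of all tested genes that rose and 13% that fell. CYCS, which encodes cytochrome c, was at 86.6 ± 3.54 TPM in Mock and 71.5 ± 1.92 TPM in PDS (SD, n = 2) and rose by 0.37 relative to the median gene (limma adjusted p = 0.0136), although it was lower in TPM as deposited, at -0.27. ENDOG, a mitochondrial nuclease, rose by 0.42 (limma adjusted p = 0.0118), with -0.22 in TPM as deposited. Outside the mitochondrial total both calls were lost, with 0.14 for CYCS (limma adjusted p = 0.104) and 0.20 for ENDOG (limma adjusted p = 0.0602). CASP8, the initiator caspase that cleaves BID, fell by 0.37 (limma adjusted p = 0.0322), from 12.2 ± 1.31 to 5.83 ± 0.273 TPM, a call lost with the length trend removed (-0.29, limma adjusted p = 0.0624). BID and CASP8 moved in opposite directions after scaling.

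Of 10 inhibitor of apoptosis genes and their antagonists, 7 were tested, of which HTRA2 rose and BIRC6 fell. HTRA2, a mitochondrial protease that opposes these inhibitors once released, changed by 0.23 (limma adjusted p = 0.0343), with -0.40 in TPM as deposited, and BIRC6, a large ubiquitin ligase of the group, by -0.36 (limma adjusted p = 0.0193). The HTRA2 call was lost outside the mitochondrial total (0.01, limma adjusted p = 0.879), under quantile normalization (0.19, limma adjusted p = 0.0622) and with the length trend removed (0.18, limma adjusted p = 0.069), and the BIRC6 call with the length trend removed (-0.17, limma adjusted p = 0.115). Of 12 death receptor and adaptor genes, 9 were tested, 4 rose and 1 fell, whereas in TPM as deposited 1 was called higher and 6 lower. For both lists, the shares over all tested genes were 16.2% that rose and 13% that fell. TNFRSF10D, a decoy receptor for the death ligand TRAIL, rose by 0.84 (limma adjusted p = 0.0055), and TRADD, an adaptor of the TNF receptor, by 0.68 (limma adjusted p = 0.0076), although in TPM as deposited TRADD stood at 0.06 (limma adjusted p = 0.541). TNFRSF10A and TNFRSF1A rose as well, although their mean TPM as deposited went from 11.73 to 10.46 and from 96.5 to 72.22. TNFSF10, which encodes TRAIL itself, fell by 0.50 (limma adjusted p = 0.0284), from 7.67 ± 1 to 3.22 ± 0.293 TPM.

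Of 11 genes for protein turnover and outer membrane partners of the family, 9 were tested, 0 rose and 2 fell. Over all tested genes, 16.2% rose and 13% fell. HUWE1, a ubiquitin ligase that acts on MCL1 protein, fell by 0.54 (limma adjusted p = 0.00736), from 29.8 ± 0.102 to 12.8 ± 0.0582 TPM. BTRC, the substrate receptor of another ubiquitin ligase, fell by 0.25 (limma adjusted p = 0.048), a call lost under quantile normalization (-0.22, limma adjusted p = 0.0659) and with the length trend removed (-0.18, limma adjusted p = 0.102). Medians of log2 fold change over the tested genes were 0.15 for the other homologs, 0.00 for apoptosome and caspases, 0.15 for the inhibitors and their antagonists, 0.22 for death receptors and -0.01 for turnover and membrane partners, beside 0.30 for the 10 members.

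**Figure D4:**
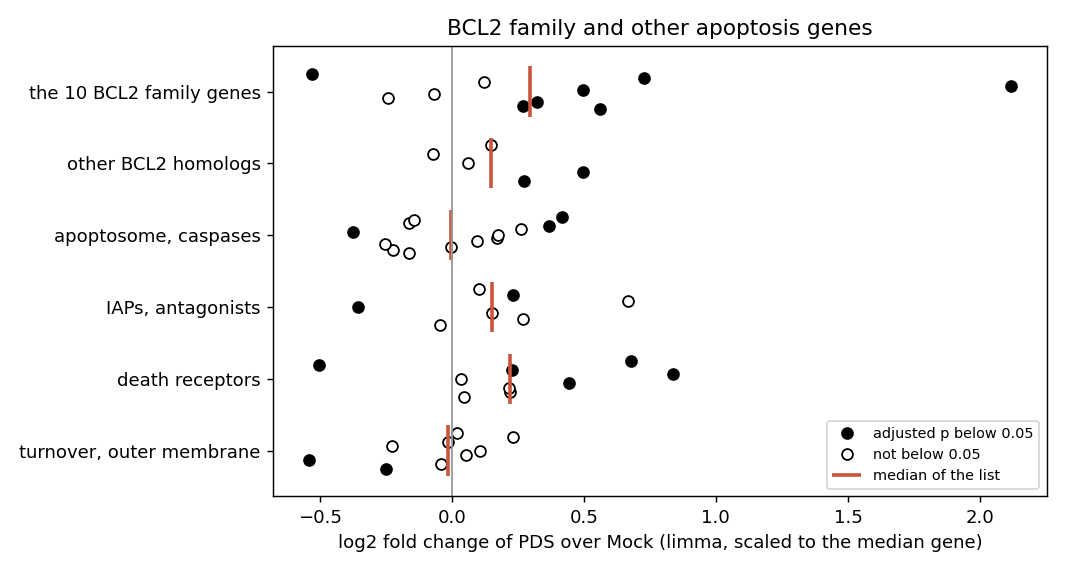
Log2 fold change of PDS over Mock, relative to the median gene, for the tested genes of each apoptosis list, filled where the limma adjusted p was below 0.05 and with a red bar at the median of the list. The 10 BCL2 family genes spanned -0.53 (PMAIP1) to 2.12 (BIK). In TPM as deposited, the median of all tested genes was 0.55 lower in PDS. Of the genes called higher in the other lists, BAX, BBC3, CYCS, ENDOG, HTRA2, TNFRSF10A and TNFRSF1A lay below 0 there.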

How the data were processed

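Poly(A) RNA was sequenced from 2 Mock and 2 PDS libraries of HepG2 cells. Per the submitters' processing notes and the study's methods, reads were aligned to GRCh38 with STAR (2.7.0) and assigned to genes with featureCounts (2.0.3), and DESeq2 (1.36.0) served the authors' tests. No annotation release, strand setting or formula for TPM was stated in these sources. The deposited values are TPM, a length-corrected expression signal made by the authors, and their group averages were left aside. Of 61910 rows, 2 were unnamed column totals, which were dropped, and 2 identifiers occurred again without expression.

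Of 61906 gene identifiers, 59984 (96.9%) matched GENCODE 44 in identifier and version. Symbols were assigned without the version, which BCL2L11 needed. Multiplied by summed exon length, TPM gave whole reads, with a distance from the nearest integer below 0.05 for 99.89% or more of the values not above 1000 reads. PCR duplicates are not independent molecules, so counting intervals cover counting error only.

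Libraries were divided by median-of-ratios factors (1.23, 1.27, 0.806 and 0.793). The 14686 genes averaging at least 1 TPM were tested by limma (version 3.58.1 in R 4.3.3) on the log2 of scaled TPM plus 1, with a variance trend, two-sided, and with Benjamini-Hochberg adjustment over all of them. The pseudocount understates changes of low genes. The steps were tested on simulated data with equal numbers of genes raised and lowered. No rise in mitochondrial RNA was built into the simulation, so it does not bear on the choice of scaling. No count model was the main test, since the files hold TPM, and limma-voom on the recovered reads was an alternative. The members and the lists were chosen with earlier results of these data known. Named genes were the 10 members, BAX, BBC3 and, in each list, up to 3 genes past the threshold with the largest change. Genes named below the filter, BCL2L12, LYZ and PTPRC were picked after their values were seen. Alternatives covered scaling, pseudocount, filter, trend, replicate number, exon length and leaving out each library. Promoter sequences came from RefSeq and were searched in Python (3.11.15).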

Additional observations from a re-analysis of the deposited data

How the results depend on the processing

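The call counts depended on scaling, filter and libraries. TPM as deposited called 10917 genes (379 higher, 10538 lower) in place of 4283 (2377 higher, 1906 lower), scaling to the total outside the mitochondrial genome 6045 (1168 higher, 4877 lower), quantile normalization 4233 (1829 higher, 2404 lower), no filter on low values 1237, and the replicate block 2817. Leaving out 1 library gave 0 to 2412 genes, 0 to 3 members and 0 to 6 genes of the other apoptosis lists. The 7 members called became 3 without a filter (MCL1, BAD and BIK). Their split of 6 higher and 1 lower became 1 and 6 in TPM as deposited, 4 and 3 outside the mitochondrial total, and 4 and 1 under quantile normalization. The 14 list genes called (9 higher, 5 lower) became 38 in TPM as deposited (1 higher, 37 lower), 18 outside the mitochondrial total (2 higher, 16 lower), 5 without a filter, and 8 without the variance trend, with the replicate block and with the length trend removed.

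Among the genes named by the rule above, the log2 fold change turned negative in TPM as deposited for BCL2L1 (-0.32), BAK1 (-0.36), BID (-0.12), BAD (-0.0527), BMF (-0.46), BAX (-0.37), BBC3 (-0.13), ENDOG (-0.22), CYCS (-0.27) and HTRA2 (-0.40). Outside the mitochondrial total it did so for BMF (-0.0821), and the median of all tested genes was -0.192 there. Whether RNA per cell fell was not tested. All 9 ratios to MCL1 kept their direction with a pseudocount of 1 and without each library, alternatives chosen after seeing the data. Same-numbered libraries shared only a number, with a correlation of deviations of -0.03. The replicate block left 5 members called, without BAK1 (adjusted p = 0.0648) and PMAIP1 (adjusted p = 0.0598). BIK rested on 13 and 8 reads in Mock and 30 and 44 in PDS, and PMAIP1 on 22 and 29 reads in PDS. The fold changes of BIK and PMAIP1 are thus the least precise of the members.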
